A study of Mus musculus with 8 samples.

Results

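Serine proteases cut proteins with an activated serine, and in epithelia many of them sit on the cell surface or are secreted onto it. Serpins trap serine proteases by being cut and then holding the enzyme covalently, while the Kunitz-type inhibitors Spint1 and Spint2 block the active site of membrane-anchored proteases such as matriptase. In the gut, matriptase (St14) and prostasin (Prss8) with these inhibitors are known for their part in keeping the epithelium tight. The members described here are the protein-coding genes of the mouse expression table whose symbols begin with Prss, Klk, Tmprss or Serpin, together with St14, Spint1 and Spint2. They number 82 of the 29037 genes in the table, 48 proteases and 34 inhibitors. The grouping was chosen by symbol and biotype with earlier results of these same libraries known, so the counts over members are given as descriptions. The role follows the symbol, and some members with a Serpin symbol, such as the collagen chaperone Serpinh1, do not inhibit proteases.

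RNA was sequenced from intestinal crypt epithelium of 8-week-old mice, with 4 libraries from Tdp-43 conditional knockouts (cKO) and 4 from their littermates of wild-type genotype (Ctrl), each a mouse of its own as the labels give them. Tdp-43 is a nuclear RNA-binding protein encoded by Tardbp, and the sources used here do not give the Cre driver, the deleted part of the gene or the part of the intestine. The comparison asks which genes differ in the crypts of the knockouts. Between 21517596 and 29992110 reads per library fell on genes. Values are the deposited gene counts divided by 1 factor per library, called normalized counts. Differences are log2 fold changes of cKO over Ctrl on the log2(value + 1) scale ± SE, with limma's adjusted p over all 16536 genes whose mean was at least 10, and a gene is called at an adjusted p under 0.05.

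Tardbp RNA, read as a check of the labels, was higher in the libraries labelled cKO, with 11990, 10794, 11875 and 13269 normalized counts, against 6319, 6342, 5103 and 4900.2 in Ctrl. The log2 fold change was 1.09 ± 0.11 (adjusted p = 0.00209). This value covers the whole gene and checks nothing about the deletion, so every direction is between the groups as labelled. Epithelial identity was plain in both groups, as the adhesion molecule Epcam had 39306 to 48870 normalized counts in cKO and 44507 to 53077 in Ctrl. In bulk crypts, fewer cells of a type and less RNA per cell cannot be told apart.

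Most proteases and inhibitors that could be tested did not pass the test between cKO and Ctrl crypts, and the few that did lay far apart in size. The tryptase-like protease Prss22 was nearly absent from Ctrl and present in every cKO library. The abundant inhibitor Serpinb1a was modestly higher in cKO, and the kallikrein Klk1b4 was lower at a very low level. Of 82 members, 37 passed the filter on low values, which is 45.1% of them against 56.9% of all genes in the table. Of the 18 proteases tested, 1 was called higher and 1 lower. Of the 19 inhibitors tested, 1 was called higher and 0 lower by limma, with 0 lower at an unadjusted p under 0.05 and 0 by edgeR or DESeq2. The called members made up 8.11% of the 37, beside 11.7% of all tested genes, 5.65% called higher and 6.07% lower. The same 3 members were the ones whose groups did not overlap, beside 19.9% of all tested genes. The median log2 fold change was 0.01 for the proteases, 0.02 for the inhibitors and -0.01 for all tested genes. For 15 of the 37 the 95% interval of the difference lay within a 2-fold change either way, beside 11048 of all 16536 tested genes. The members were thus bounded less often than genes at large. The authors' deposited table gave an adjusted p under 0.05 to 5 of the 80 members for which it had a p-value, 2 above 0 and 3 below, beside 10.1% of all genes with one.

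**Figure D1:**
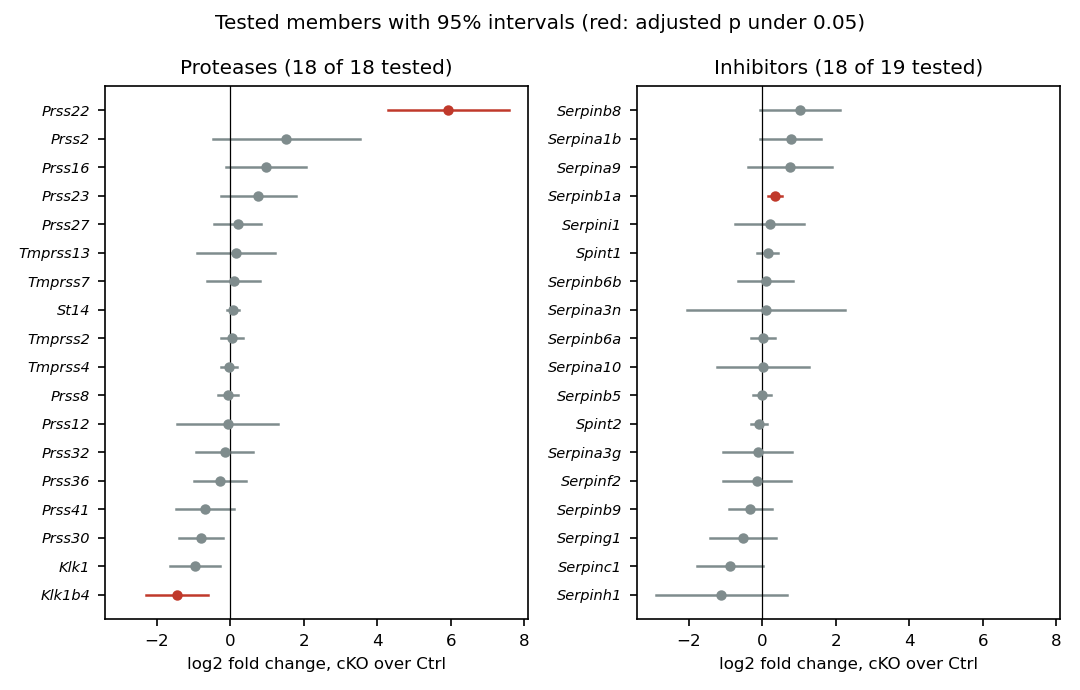
Log2 fold change of cKO over Ctrl (points) with its 95% interval (lines) for the 18 tested proteases on the left and 18 of the 19 tested inhibitors on the right, with the called members in red. Prss22 stands at 5.94, while the other proteases lie between -1.45 and 1.53 and the inhibitors drawn between -1.12 and 1.02.

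Prss22 encodes tryptase epsilon, a secreted serine protease of epithelia whose human form is known to activate pro-urokinase. The gene (ENSMUSG00000045027) lies on chromosome 17 from 23993534 to 23998100 on the minus strand of GRCm38. It had 664, 99.5, 128 and 220 normalized counts in cKO 1 to 4, against 4.87, 5.25, 0 and 2.67 in Ctrl 1 to 4. Every cKO library was above every Ctrl library, and cKO 1 was the highest. These values rest on 1180 recovered reads over the cKO libraries and 12 over Ctrl. The log2 fold change was 5.94 ± 0.73 (adjusted p = 0.00359), and it stayed past the threshold in all 18 alternatives, between 4.76 and 6.48. Per kb of gene length its mean level was 210 normalized counts in cKO, against 1767 for St14 in the same libraries, so it remained well below the leading surface proteases.

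Prss22 lies in a group of 6 Prss genes that spans 212.6 kb of chromosome 17. Of its 4 tested neighbours 0 were called by limma, beside 11.7% of all tested genes, with Prss30 alone at an unadjusted p under 0.05 (0.0152). Prss30, whose start lies 17.5 kb away, had 3242, 3165, 4715 and 1812 normalized counts in cKO, against 6989, 5109, 4628 and 4805 in Ctrl. Its cKO values lay mostly below those of Ctrl, with cKO 3 inside the Ctrl range, and the difference was -0.79 ± 0.27 (adjusted p = 0.0876). It passed the threshold when cKO 3 was left out (log2 fold change -1) and with DESeq2, and the authors' deposited table gives -0.74 with an adjusted p of 0.0420. Prss27, known as marapsin, on the other side at 40.0 kb differed by 0.20 (adjusted p = 0.692), Prss41 by -0.69 (adjusted p = 0.235) and Prss32 by -0.15 (adjusted p = 0.802). Prss33 was below the filter. The transcripts of Prss22 and Prss30 share 61.8% of aligned bases, and those of Prss22 and Prss27 61.6%.

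**Figure D2:**
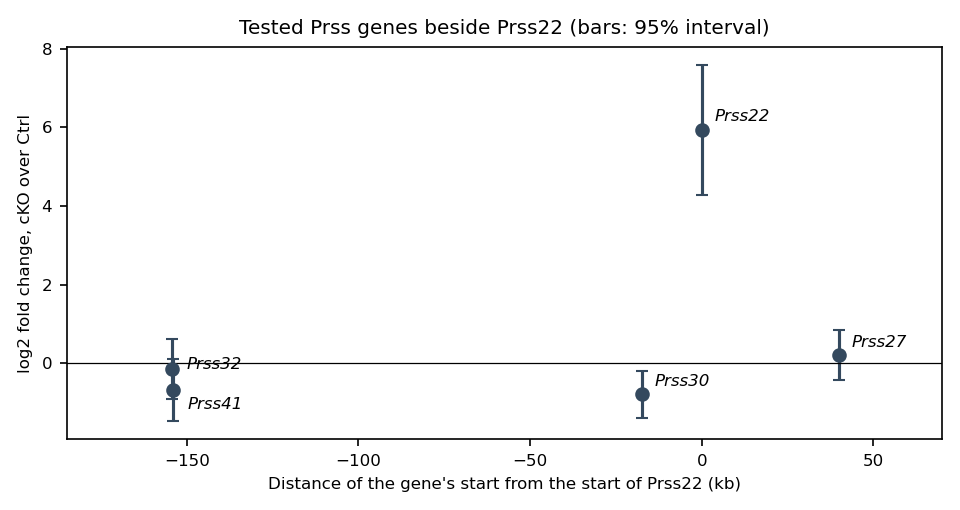
Log2 fold change of cKO over Ctrl with its 95% interval (vertical axis) for the 5 tested Prss genes of chromosome 17, by the distance of each start from that of Prss22 in kb, with negative distances on the downstream side of Prss22. Prss22 stands at 5.94 and the 4 neighbours lie between -0.79 and 0.20.

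Klk1, tissue kallikrein, which releases kinins from kininogen, was the most abundant member per kb of gene length. The gene (ENSMUSG00000063903) lies on chromosome 7 from 44225360 to 44229618 on the plus strand. It had 8197, 19597, 9828 and 16143 normalized counts in cKO, against 26043, 18102, 23066 and 33940 in Ctrl. The groups overlapped only through cKO 2, which lay above Ctrl 2, and the difference of -0.96 ± 0.30 missed the threshold (adjusted p = 0.0679, 95% interval -1.63 to -0.29). Without cKO 2 the difference was -1.18 and passed, it also passed with DESeq2, and the authors' deposited table gives -0.91 with an adjusted p of 0.0167. Klk1b4 (ENSMUSG00000066513), a close relative at 44207435 to 44211754 on the same strand, had 3.65, 8.78, 12 and 7.85 normalized counts in cKO, against 30.4, 17.9, 18.9 and 24.0 in Ctrl. It fell by 1.45 on the log2 scale (SE 0.38, adjusted p = 0.0385), on 33 reads over the cKO libraries and 89 over Ctrl.

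The call for Klk1b4 was lost when any Ctrl library, cKO 1 or cKO 4 was left out (adjusted p up to 0.0982). Its transcript shares 90.6% of aligned bases with that of Klk1 and 90.7% with that of Klk1b5, so the split of reads between them is uncertain. For every 1000 normalized counts of Klk1 there were 0.445, 0.448, 1.23 and 0.486 of Klk1b4 in cKO, and 1.17, 0.986, 0.821 and 0.708 in Ctrl. In this ratio cKO 3 was the highest of all libraries, and the other cKO libraries lay below Ctrl. The whole list of 7 goblet cell markers summed to between 327945 and 809358 in cKO and between 615785 and 1124414 in Ctrl. Most of these counts were of Clca1, with means of 140528 in cKO and 428687 in Ctrl, and Fcgbp, with 210398 and 294178. Of the 7, only the secreted goblet protein Clca1 was called, at -1.87 (adjusted p = 0.0464), beside 6.07% of all tested genes called lower. Clca1 had 62274, 60341, 157788 and 281707 normalized counts in cKO and 374144, 290094, 476214 and 574297 in Ctrl. The others were not called and lay on both sides of 0, with the mucin Muc2 at -0.12 (adjusted p = 0.716), Fcgbp at -0.53 and Spink4 at -0.52, Agr2 at -0.04, and the trefoil peptide Tff3 at 0.69 (adjusted p = 0.113) and the lectin Zg16 at 0.52 (adjusted p = 0.426). The part of goblet cells in the Klk1 values was not tested.

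**Figure D3:**
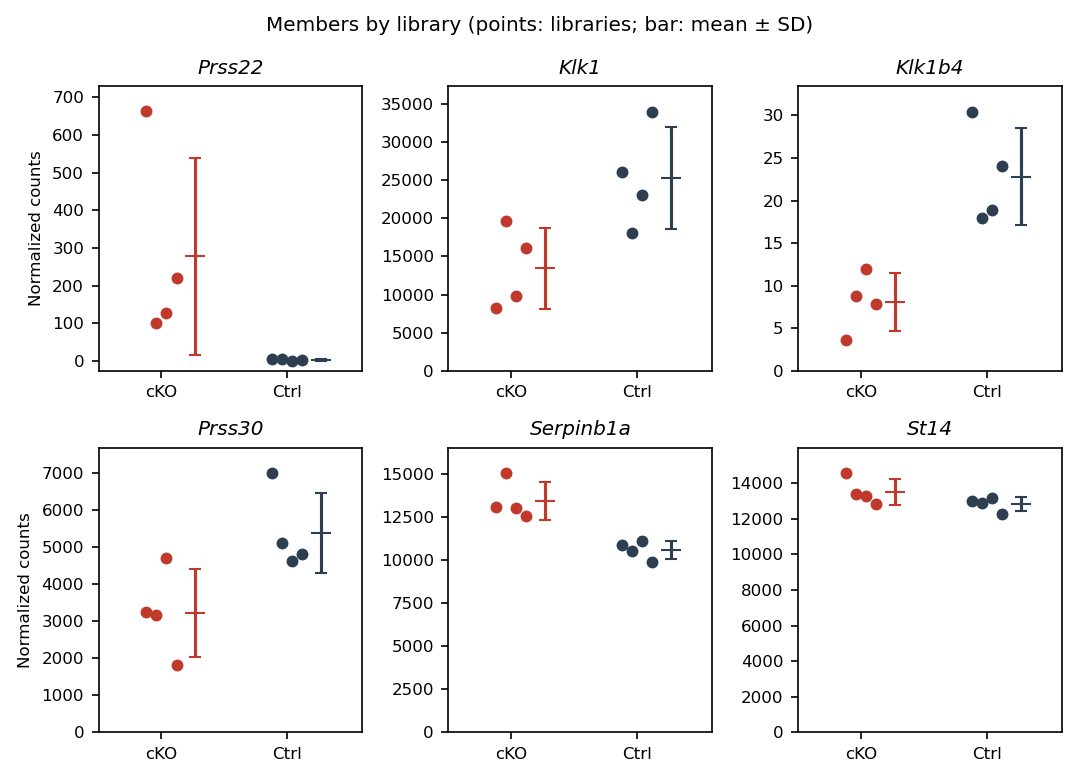
Normalized counts of 6 members in each library, with cKO on the left and Ctrl on the right of each panel (points, with the mean ± SD of 4 libraries beside them). The groups do not overlap for Prss22, Klk1b4 and Serpinb1a, and they overlap for Klk1, Prss30 and St14.

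The 250 bases before the starts of Klk1 and Klk1b4 are shown because these 2 neighbours of the kallikrein group were the lowest of the tested proteases by fold change. The sequences are those of RefSeq on GRCm38.p6, at chr7:44225110-44225359 and chr7:44207183-44207432 on the plus strand. Capitals mark the runs of at least 12 bases present in both, which number 3, hold 44 bases and reach 16 bases at the longest.
Klk1: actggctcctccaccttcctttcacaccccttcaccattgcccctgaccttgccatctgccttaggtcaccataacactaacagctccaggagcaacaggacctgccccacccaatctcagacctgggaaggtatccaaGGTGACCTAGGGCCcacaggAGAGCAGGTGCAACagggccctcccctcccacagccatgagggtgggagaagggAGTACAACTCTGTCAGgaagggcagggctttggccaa
Klk1b4: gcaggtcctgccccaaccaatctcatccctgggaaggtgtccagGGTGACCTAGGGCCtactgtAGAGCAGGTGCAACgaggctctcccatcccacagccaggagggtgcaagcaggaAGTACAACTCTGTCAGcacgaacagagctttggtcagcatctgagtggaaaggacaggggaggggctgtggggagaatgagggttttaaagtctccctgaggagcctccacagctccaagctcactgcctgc
The shared runs keep their order in both genes but lie nearer to the RefSeq start in Klk1.

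The kallikrein group of chromosome 7 holds 16 members over 448.6 kb, and 14 of them were below the filter. Klk1b5 had 37 reads over the cKO libraries and 44 over Ctrl, and Klk1b3 had 20 and 27. Klk8, known as neuropsin, had 34 and 17 reads and Klk15 had 29 and 35. Klk9 had 0 reads in cKO and 8 in Ctrl. The remaining kallikreins gave between 1 and 26 reads in any group where they had reads at all.

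Among the membrane-anchored proteases, St14, Prss8, Tmprss2 and Tmprss4 were abundant and close between the groups, as were the inhibitors Spint1 and Spint2. The other Tmprss genes were lower, with 8 of the 12 Tmprss members below the filter. St14, matriptase, which is activated together with prostasin on epithelial surfaces, had 14540, 13357, 13250 and 12823 normalized counts in cKO, against 12979, 12867, 13171 and 12287 in Ctrl. The groups overlapped, and the difference was 0.07 ± 0.07 (adjusted p = 0.567, 95% interval -0.09 to 0.24). Prss8, prostasin, averaged 1596 ± 203 normalized counts in cKO and 1666 ± 223 in Ctrl (SD, n = 4 each), a difference of -0.06 with an interval from -0.34 to 0.22. Tmprss2, the surface protease known for priming viral spike proteins, had 18025, 26231, 22237 and 24235 in cKO and 18821, 22020, 22498 and 23590 in Ctrl. Its difference was 0.05 (95% interval -0.24 to 0.34). Tmprss4 had 4352, 4349, 4683 and 5089 in cKO, against 5173, 5209, 4299 and 4315 in Ctrl, a difference of -0.04 (95% interval -0.26 to 0.18). These intervals bound any change of these 4 genes well within a 2-fold one.

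Spint2, the Kunitz inhibitor whose human gene is mutated in a congenital diarrhoea, was the most abundant inhibitor per kb. It had 33955, 38545, 35227 and 40649 normalized counts in cKO, against 38015, 36874, 43286 and 39903 in Ctrl, overlapping groups that differed by -0.09 ± 0.09 (adjusted p = 0.568, 95% interval -0.30 to 0.12). Spint1, its relative on the same kinds of target, had 6910, 8921, 6872 and 6944 in cKO, against 5737, 6144, 7741 and 7060 in Ctrl. Here cKO 2 stood above the other 7 libraries, and the difference of 0.15 (adjusted p = 0.468, 95% interval -0.13 to 0.43) became 0.06 without it. Prss32 had 5979, 9978, 11030 and 13786 in cKO, against 8477, 7228, 12376 and 18346 in Ctrl, and the interval of its difference ran from -0.92 to 0.61. Of the 4 tested Tmprss genes 0 were called, beside 11.7% of all tested genes. There were also 0 at an unadjusted p under 0.05 in limma and 0 by edgeR or DESeq2. The other 2 of them were Tmprss13 at 0.16 (95% interval -0.90 to 1.22) and Tmprss7 at 0.09 (95% interval -0.63 to 0.80). Tmprss13 had 245 normalized counts in cKO 2 and between 59.9 and 140 in the other libraries, and its difference without cKO 2 was -0.25 (adjusted p = 0.692).

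Serpinb1a is an inhibitor of neutrophil elastase and cathepsin G that is kept in the cytoplasm of the cells that make it. The gene (ENSMUSG00000044734) lies on chromosome 13 from 32842092 to 32851185 on the minus strand. It had 13090, 15049, 13019 and 12568 normalized counts in cKO, against 10873, 10546, 11114 and 9892 in Ctrl. Every cKO library was above every Ctrl library, with cKO 2 the highest. The log2 fold change was 0.34 ± 0.08 (adjusted p = 0.0329, 95% interval 0.15 to 0.53), a ratio of means of 1.27. The call was lost when any Ctrl library, cKO 1, cKO 3 or cKO 4 was left out (adjusted p up to 0.0975), while the fold change stayed between 0.28 and 0.42 in all 18 alternatives. Its relatives Serpinb1b and Serpinb1c, with 86.3% and 86.9% of aligned transcript bases in common with it, had at most 21 reads over a group, so the reads in this family fell almost wholly on Serpinb1a.

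Neutrophil markers were also higher in cKO. Of 8 tested markers, 6 were called higher and 0 lower, beside 5.65% of all tested genes called higher. The 6 were Ly6g, Il1r2, Retnlg, Csf3r, S100a8 and S100a9. For Csf3r, S100a8 and S100a9 the groups overlapped and cKO 4 was the highest library, at 310, 519 and 601 normalized counts. The sum of the marker list without Ly6g, which held most of the list's counts, was 387, 165, 352 and 1684 in cKO, against 26.8, 60.9, 44.5 and 158 in Ctrl. With Ly6g the sum was 9703, 17989, 5555 and 5675 in cKO and 1259, 703, 765 and 1534 in Ctrl. Among the cKO libraries Serpinb1a was highest in cKO 2, where the sum with Ly6g was highest and the sum without it lowest. The RNA of the granule proteases was near 0, as Prtn3, proteinase 3, had 4 reads over the cKO libraries and 3 over Ctrl, and Ctsg, cathepsin G, had 2 and 1. The gene for neutrophil elastase was not found by its symbol among the 29037 genes in the table, so it could not be tested. The part of neutrophils in the Serpinb1a values was not tested.

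The other serpins of the cytoplasmic B clade were not called. Serpinb6a, whose product inhibits cathepsin G, had 9781, 14775, 11127 and 10032 normalized counts in cKO, against 9485, 10599, 12883 and 11662 in Ctrl, a difference of 0.02 (95% interval -0.31 to 0.36). Serpinb5, maspin, had 1991, 1438, 1665 and 1711 in cKO, against 1815, 1729, 1766 and 1504 in Ctrl, a difference of -0.01 (95% interval -0.26 to 0.24). Serpinb9, an inhibitor of granzyme B, differed by -0.32 (adjusted p = 0.459), and its target Gzmb, a protease of cytotoxic lymphocytes, by -1.19 (adjusted p = 0.357). Serpinb8, known to inhibit furin, had 19.2, 35.1, 25.1 and 23.6 in cKO, against 3.65, 16.8, 20.8 and 14.2 in Ctrl. The groups overlapped through cKO 1, and the difference was 1.02 ± 0.48 (adjusted p = 0.202). Serpinb6b differed by 0.09 (adjusted p = 0.883).

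Several serpins, within the cytoplasmic clade and outside it, were highest in a single library, Ctrl 4. Serpina3n had 15.5, 10.7, 6.02 and 52.0 normalized counts in cKO, against 4.87, 8.40, 8.53 and 106 in Ctrl. Serpinh1, the collagen chaperone, had 64.8, 15.6, 116 and 210 in cKO, against 114, 144, 90.9 and 385 in Ctrl. Both were highest in Ctrl 4, as was Serpinb2, an inhibitor of urokinase that was below the filter with 2 reads over the cKO libraries and 64 over Ctrl. The 8 fibroblast markers summed to 1288, 546, 2104 and 2202 in cKO and to 1145, 2019, 1766 and 4633 in Ctrl, so Ctrl 4 was also the highest in these. With all libraries the differences were 0.09 for Serpina3n and -1.12 for Serpinh1, and without Ctrl 4 they were 1.02 and -0.68, with adjusted p-values of 0.388 and 0.648. Serpinh1 also depended on cKO 2, its lowest library, and differed by -0.41 without it (adjusted p = 0.659). The part of fibroblasts in these values was not tested.

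The A-clade serpins, which in the body are mostly made by the liver, were low here. Of the 5 tested, 0 were called, with 0 at an unadjusted p under 0.05 in limma and 0 by edgeR or DESeq2. Their differences ran from -0.12 for Serpina3g to 0.77 for Serpina1b, with 0.75 for Serpina9 and 0.02 for Serpina10. The members of the Serpina1 and Serpina3 clusters are close relatives, and the split of reads among them is uncertain. Serpinc1, antithrombin, had 21, 6.83, 13.1 and 21.6 normalized counts in cKO, against 34.1, 36.8, 20.8 and 20.5 in Ctrl, a difference of -0.88 (adjusted p = 0.189). Serping1, the inhibitor of the complement protease C1, differed by -0.52 (adjusted p = 0.436), Serpinf2, which inhibits plasmin, by -0.14 (adjusted p = 0.855) and Serpini1, neuroserpin, by 0.20 (adjusted p = 0.790).

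The remaining tested proteases were not called, and their intervals were wide. Prss2, a trypsinogen with close relatives among the trypsin genes, had 10.0, 2.93, 71.3 and 5.89 normalized counts in cKO, against 8.52, 1.05, 1.89 and 4.45 in Ctrl. Its difference of 1.53 ± 0.89 (adjusted p = 0.296) came with 1 library, cKO 3, far above the rest. Prss23 had 152, 632, 166 and 160 in cKO, against 101, 108, 157 and 177 in Ctrl, and its difference of 0.76 (adjusted p = 0.308) became 0.27 without cKO 2. Prss16, a protease first known from the thymus, had 194, 87.8, 231 and 170 in cKO, against 85.2, 103, 155 and 32.0 in Ctrl, overlapping groups with a difference of 0.97 (adjusted p = 0.220). Prss36 differed by -0.28 (adjusted p = 0.602) and Prss12, neurotrypsin, by -0.07 (adjusted p = 0.953).

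The 45 members below the filter, 30 proteases and 15 inhibitors, had means up to 9.92 normalized counts. Of these, 29 had reads in both groups, 10 had reads in cKO and 0 in Ctrl, and 6 had reads in Ctrl and 0 in cKO. This is 22.2% with 0 in Ctrl and 13.3% with 0 in cKO, beside 10.4% and 6.39% of all genes below the filter. The 10 were Prss46, Tmprss11f, Tmprss11a, Tmprss11e, Prss34 and Klk1b8 among the proteases, and Serpina1a, Serpinb12, Serpina1e and Serpinb11 among the inhibitors, with 2 to 19 reads over the cKO libraries. Prss46 had 19 reads in cKO, spread as 10.0, 1.95, 1 and 4.91 normalized counts, and its mean was at least 4.90-fold higher than a floor of 3 reads over the Ctrl group, each taken at the largest value of 1 read in Ctrl. Tmprss11f, of a family best known from the stratified epithelium of the airway and oesophagus, had 10 reads, with 2.74, 5.85, 0 and 0.981 normalized counts in cKO, and its mean was at least 2.62-fold higher than the same floor. Among 5 tested markers of stratified epithelium, the desmosomal cadherin Dsg3 alone was called, higher in cKO at 1.58 (adjusted p = 0.0483). Of all tested genes, 5.65% were called higher. Krt5, the keratin of basal cells, had 22 reads in cKO and 0 in Ctrl, and Krt14 differed by -0.18 (adjusted p = 0.881). The part of other epithelia in the Tmprss11 and Prss22 values was not tested.

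Set against each other as sums of normalized counts per kb of gene length, the proteases averaged lower in cKO and the inhibitors about level, and most of the gap was Klk1. The protease sum was 19782, 33399, 24976 and 31695 in cKO, against 39043, 30636, 37839 and 51365 in Ctrl, a ratio of means of 0.691. The groups overlapped, as Ctrl 2 lay below cKO 2 and cKO 4. Klk1 held 44.2% ± 8.30 of this sum in cKO and 58.7% ± 3.49 in Ctrl (SD, n = 4 each). Without Klk1 the protease sums averaged 14983 ± 1973 in cKO and 16241 ± 2633 in Ctrl, a ratio of 0.923. The inhibitor sum was 18359, 21623, 18839 and 19690 in cKO, against 17763, 17814, 20385 and 18824 in Ctrl, a ratio of 1.05. The quotient of protease over inhibitor sum was 1.08, 1.54, 1.33 and 1.61 in cKO and 2.20, 1.72, 1.86 and 2.73 in Ctrl, with no overlap of the groups. With the leading gene of each side left out, Klk1 and Spint2, it was 1.12, 1.15, 1.43 and 1.55 in cKO and 1.58, 1.42, 1.51 and 1.97 in Ctrl, and the groups overlapped. These sums are of RNA, cover members chosen with results known, and carry no test.

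**Figure D4:**
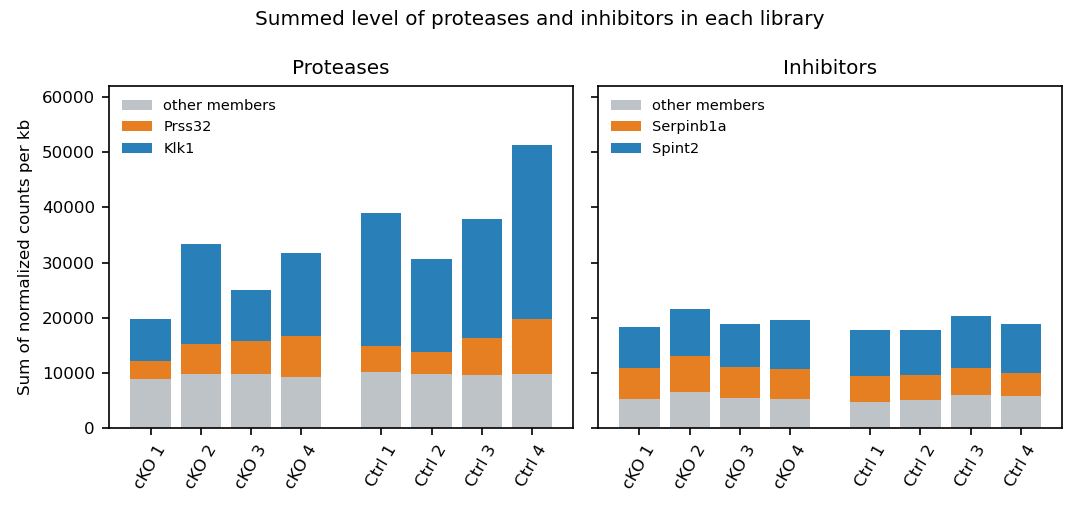
Sum of normalized counts per kb of gene length in each library for the proteases (left) and the inhibitors (right), with cKO 1 to 4 before Ctrl 1 to 4 and the 2 leading genes of each role coloured. The protease bars reach 19782 to 33399 in cKO and 30636 to 51365 in Ctrl, most of the gap being Klk1, and the inhibitor bars stay between 17763 and 21623.

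Outside the members, the urokinase receptor Plaur and the plasminogen activator Plat were higher in cKO. Of 17 tested substrates and partners of these proteases, 5 were called higher and 2 lower, with a median log2 fold change of 0.06, beside 5.65% of all tested genes called higher and 6.07% lower. Plaur, the urokinase receptor, had 2427, 1433, 976 and 1305 normalized counts in cKO, against 240, 194, 154 and 199 in Ctrl. All cKO libraries were above all Ctrl libraries, and it rose by 2.89 ± 0.26 on the log2 scale (adjusted p = 0.00180). F3, tissue factor, which starts coagulation, rose by 1.37 (adjusted p = 0.0161). Scnn1g, the gamma subunit of the epithelial sodium channel that proteases such as prostasin activate, had 207, 770, 43.2 and 103 in cKO, against 17, 16.8, 12.3 and 20.5 in Ctrl. It rose by 3.24 ± 0.74 (adjusted p = 0.0275), while the alpha subunit Scnn1a differed by -0.38 (adjusted p = 0.360). The receptor Met, whose ligand is released from its precursor by such proteases, rose by 0.37 (adjusted p = 0.0164). Hgfac, the activator of that ligand, had 3001, 4833, 3033 and 4216 in cKO and 6187, 5978, 7236 and 6978 in Ctrl, and fell by 0.83 on the log2 scale (adjusted p = 0.0144). Lrp1, an endocytic receptor that clears serpin complexes, fell by 0.61 (adjusted p = 0.0480). The protease-activated receptor F2rl1 differed by 0.06 (adjusted p = 0.789) and Epcam by -0.15 (adjusted p = 0.378).

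**Figure D5:**
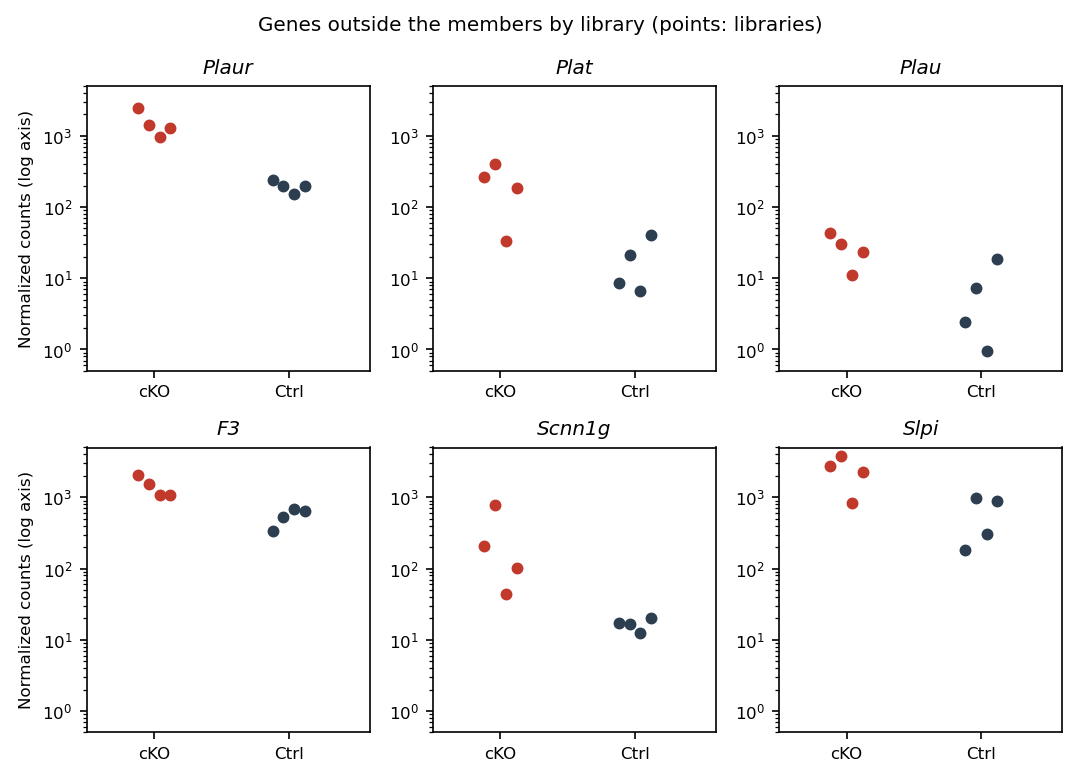
Normalized counts on a log axis for Plaur, Plat, Plau, F3, Scnn1g and Slpi in each library, with cKO on the left and Ctrl on the right of each panel and 1 point per library. Plaur spans 976 to 2427 in cKO and 154 to 240 in Ctrl, while Slpi spans 836 to 3842 in cKO and 182 to 977 in Ctrl and overlaps.

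Serine proteases that the symbols do not cover gave 2 called higher and 4 lower of 29 tested, with a median of -0.04, beside the same 5.65% and 6.07% of all tested genes. Plat, tissue plasminogen activator, had 261, 399, 33.1 and 182 normalized counts in cKO, against 8.52, 21, 6.63 and 40.9 in Ctrl, and rose by 3.31 ± 0.81 (adjusted p = 0.0348) although cKO 3 lay below Ctrl 4. Plau, urokinase, had 43.8, 30.2, 11 and 23.6 in cKO, against 2.43, 7.35, 0.947 and 18.7 in Ctrl, and its difference of 2.14 did not pass (adjusted p = 0.0876). The proprotein convertase Pcsk6 rose by 1.93 (adjusted p = 0.00209) and Pcsk5 fell by 0.53 (adjusted p = 0.0297). The brush-border peptidase Dpp4 fell by 0.55 (adjusted p = 0.0171) and the transmembrane tryptase Tpsg1 by 1.1 (adjusted p = 0.0376). Hgfac was the fourth of those called lower. Plg, the plasminogen gene, had 2 reads over the cKO libraries and 5 over Ctrl. The mast cell proteases Mcpt1 and Mcpt2 differed by 0.03 ± 1.12 and 0.42 ± 1.12 (adjusted p = 0.991 and 0.841), with widely spread cKO libraries. Mcpt1 had 3715, 122, 4688 and 577 normalized counts in cKO, against 703, 775, 1402 and 1503 in Ctrl. Mcpt2 had 1905, 58.5, 2250 and 304 in cKO, against 272, 308, 499 and 578 in Ctrl. For both genes cKO 1 and cKO 3 lay above every Ctrl library and cKO 2 below every one. Of 20 tested inhibitors of other families, 1 was called higher and 1 lower, beside 11.7% of all tested genes called either way. Csta1, a cystatin of the stefin type that acts on cysteine proteases, rose by 2.21 (adjusted p = 0.00219), and Ambp, whose product includes the Kunitz inhibitor bikunin, fell by 1.96 (adjusted p = 0.0135). Slpi, an inhibitor of neutrophil elastase secreted by epithelia, had 2728, 3842, 836 and 2295 in cKO, against 182, 977, 309 and 883 in Ctrl, and its difference of 2.17 did not pass (adjusted p = 0.0768).

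Promoter windows of RefSeq on GRCm38.p6 were found for 66 of the 82 members, and the 250 bases before each start were searched. The letters TGANTCA, which include the AP-1 site TGAGTCA and read the same way on both strands, were present for 7 of 28 inhibitors (25.0%) and 4 of 38 proteases (10.5%), beside 7.82% of 27025 genes. Of the 7 inhibitors, 5 were neighbouring Serpinb members of chromosome 1, and the others were the close relatives Serpina1a and Serpina1b. All 5 Serpinb members of chromosome 1 held the letters in at least 1 promoter entry, Serpinb11 at 2 places and Serpinb12 in 1 of its 2 entries, and these neighbours lie within 749.3 kb. They are shown with the motif in capitals and 10 bases on each side because this match was common to the whole group.
Serpinb5, chr1:106861025-106861051 (+): aagttgggccTGAATCAtgtcttccaa
Serpinb12, chr1:106934394-106934420 (+): aaaaacaatcTGATTCAcgatcattat
Serpinb11, chr1:107362123-107362149 (+): aagtatagtgTGATTCAgaaagcacag
Serpinb11, chr1:107362228-107362254 (+): ggtgaagagcTGAATCAtaacaacaca
Serpinb2, chr1:107511319-107511345 (+): agtaaaatgtTGAATCAtacaaagaat
Serpinb8, chr1:107589973-107589999 (+): gtgggaagtgTGAGTCAcagagtgttc
Of these windows, the one of Serpinb8 alone held the AP-1 letters with G in the centre. Of the 5 genes 2 were tested, Serpinb8 at 1.02 and Serpinb5 at -0.01 with adjusted p-values of 0.202 and 0.970. Serpinb12 and Serpinb11 had 5 and 3 reads in cKO and 0 in Ctrl, and Serpinb2 had 2 reads in cKO and 64 in Ctrl, mostly in Ctrl 4. Over promoter entries, the letters TGATGNAA were present in 2.13% for proteases, 3.03% for inhibitors and 3.45% of all, and GGGNGG in 72.3%, 69.7% and 64.5%, on either strand. A match describes the sequence and no site or cause.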

How the data were processed

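RNA of 4 cKO and 4 Ctrl mice was taken up in TRIzol, and libraries followed standard Illumina steps, per the labels' protocols. CASAVA, HISAT2 2.0.5 and featureCounts 1.5.0-p3 are listed, per the submitters' processing notes. The sources used here do not give the build, the annotation or the use of strand, but all 82 members' coordinates equal those of GENCODE M21 on GRCm38. The deposited signal values are gene counts that the authors divided by 1 factor per library. Whole reads were recovered from 100% of values by dividing by each library's step, within 0.0001 reads. The authors' deposited table also gives log2 fold changes and p-values from a test it does not name.

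Genes with a mean of at least 10 were tested with limma 3.58.1 (trend, robust, two-sided) on log2(value + 1), with group as the only term and Benjamini-Hochberg adjustment over 16536 genes at 0.05. Adding 1 shrinks low genes' fold changes. Fitting was tested on simulated data. Alternatives, 18 in number, were other pseudocounts (0.5, 5), other filters, protein-coding genes alone, TMM scaling, library totals, edgeR 4.0.16 and DESeq2 1.42.0 on recovered reads, the replicate block and each library left out. R 4.3.3 was used. Floors cover counting error only. Libraries within a group differed by far more than sampling noise, with a chi-square per degree of freedom of at least 26.1.

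Members, gene lists and tests were chosen with earlier results of these data known. Values per library are given by rule for called members, the 5 leading proteases and 5 leading inhibitors per kb, St14, Spint1 and Spint2. Other members shown by library were picked after their values were seen. Of the lists, called genes and a fixed set are named, and Plg, the goblet markers other than Clca1, Krt5 and Krt14 were added after their values were seen. Protein sequences were not used here. Some members of the groups counted are not reported here by name. Of the marker lists not described in the report, mast cell, T and NK cell, endothelium, platelet, pancreatic acinar, liver and colonocyte markers had 0 called by limma. Macrophage markers had 1 higher (Mrc1), stem cell markers 1 higher (Olfm4), Paneth markers 1 higher (Mmp7) and 1 lower (Pnliprp2), enterocyte markers 2 lower (Fabp2, Slc5a1) and intestinal epithelium markers 2 higher (Krt18, Krt20) and 1 lower (Cdx1).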

Additional observations from a re-analysis of the deposited data

Results flagged for a closer look

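In 5 of the 74 groups of 4 libraries checked over the tested members, 1 library stood apart from the other 3 by more than Dixon's critical value. The check used normalized counts without logs, and in all 5 the highest library stood apart. Chance alone gives about 1 in 20 such groups only where values are normally distributed, which was not checked here. Prss2 had 71.3 normalized counts in cKO 3 and 2.93 to 10.0 in the other cKO libraries. Prss41 had 115.5 in cKO 3, against 42.2 to 53.9. Prss23 had 631.8 in cKO 2, against 151.5 to 165.7, and Spint1 had 8920.9 in cKO 2, against 6872.3 to 6943.8. Serpina3n had 105.8 in Ctrl 4, against 4.87 to 8.53 in the other Ctrl libraries.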

How the results depend on the processing

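Over the 18 alternatives the calls of Prss22 and Tardbp held, and no called member reversed. Proteases called higher numbered 1, and 2 with no filter on low values. Proteases called lower numbered 1, but 0 with a mean of at least 50, 0 with the replicate block and 3 with DESeq2, and 0 to 2 when 1 library was left out. The mean of at least 50 drops Klk1b4 from the test. Inhibitors called higher numbered 1, but 0 with the replicate block and 0 to 1 when 1 library was left out, and inhibitors called lower numbered 0 throughout. With 1 library left out, calls over all genes also changed, from 376 higher and 390 lower without Ctrl 3 to 1350 higher and 1382 lower without cKO 2, beside 935 and 1004. DESeq2 called 1509 higher and 1492 lower. Scaling by library totals shifted the median of all genes to 0.07 and gave 1327 higher and 740 lower (64.2% higher, beside 48.2%), with the same member counts. The labels do not say that the replicate numbers pair the mice. Deviations of same-numbered libraries correlated at 0.32, -0.11, 0.12 and 0.32, and cKO 1, 3 and 4 matched their own number best while cKO 2 did not. These values do not settle whether the mice were paired, and the main fit did not take the numbers as pairs. The replicate block called 821 genes higher and 924 lower, and under it Klk1b4 had an adjusted p of 0.0816 and Serpinb1a of 0.0567. Low read counts limit what can be seen for the 45 members below the filter.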
